A study of Drosophila melanogaster with 36 samples.

Results

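RNA polymerase II (Pol II) occupancy was compared between ovaries with a germline knockdown of rhino and ovaries with a control germline knockdown. It was measured by chromatin immunoprecipitation and sequencing (ChIP-seq) with antibody 8WG16, raised against the repeat of the Pol II C-terminal domain. The 2 Pol II libraries, 1 per knockdown, belong to a set of 36 samples from Drosophila melanogaster ovaries. Values were given for 139714 bins of 1 kb of the dm3 assembly. Of these, 115199 were used: those with an input signal of at least 25% of its median and a mappability index of at least 0.5. All samples used here came from ovaries of adult females aged 4 to 6 days that were kept at 25 °C. By their labels the 2 groups differ in the germline knockdown, control or rhino, and share everything else given. The driver and the RNA hairpin are not given in the sources used here. An ovary holds somatic follicle cells as well as germ cells, and both contribute chromatin, while the knockdown is confined to the germline by its label. In such whole-organ material, fewer cells of a type and less Pol II per cell cannot be told apart.

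Rhino, an HP1-type protein with a chromodomain, binds chromatin carrying trimethylated lysine 9 of histone H3 (H3K9me3). In germ cells it sits with its partners Deadlock and Cutoff on dual-strand piRNA clusters, loci whose transcripts from both strands are cut into the small RNAs that silence transposons. Cluster 42AB is the best known of them, while flamenco is a single-strand cluster that is used in follicle cells and does not need Rhino. Whether Rhino matters for the presence of Pol II on these loci is the question this comparison addresses.

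Each value is the number of reads in a bin per 1000000 reads of the library, divided by the mappability of the bin, plus a constant 0.1. The change in a bin was taken as log2(value + 1) in rhino knockdown minus the same in the control, which understates changes at low values. Bins were called lower or higher when the change passed 1.5-fold on this scale and the exact 95% interval of the read ratio did not include 1. With 1 library per knockdown there is no replicate error and no test between the conditions. Intervals of read ratios cover counting error only, and intervals of medians cover the spread between bins, which are not independent. The libraries were scaled to 23820000 reads in the control and 19040000 in rhino knockdown, and a used bin held a median of 50 and 39 reads.

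Loss of Rhino itself was seen on the same bins. At 42AB the mean Rhino ChIP value was 324 in the control, an average of 2 libraries, and 9.32 in the single rhino knockdown library.

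Over all 115199 bins the libraries were nearly level, with a median Pol II change of -0.04 and a mean value of 9.12 in the control against 9.10 in rhino knockdown. Of these bins, 3165 (2.75%) were called lower and 5349 (4.64%) were called higher. Scaling the libraries to euchromatic bins outside exons moved the median over all bins by 0.12 and gave 1384 lower and 9900 higher calls, against 3873 and 4556 when scaled to euchromatic exon bins. Small shifts of broad classes are therefore within what the scaling can move, and a direction that depends on it is named below. Exon bins of euchromatin had mean values of 15.8 and 15.4 with a median change of -0.05, and euchromatic bins outside exons had 3.75 and 4.05 with a median of -0.03. Heterochromatic exon bins had a median change of -0.07, and heterochromatic bins outside exons also had -0.07. All 4 class medians were above 0 when scaled to euchromatic bins outside exons, at 0.08, 0.08, 0.08 and 0.04. Calls were more frequent in heterochromatin on the lower side, with 6.03% of its bins lower and 5.76% higher, against 2.59% and 4.59% in euchromatin. Outside exons 6.58% of heterochromatic bins were lower and 5.98% higher.

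Of the listed clusters, 42AB had the lowest median Pol II change. Of the 243 bins of this cluster on chr2R:2144001-2387000, 38 passed the filters, and their mean Pol II value was 11.4 in the control and 7.84 in rhino knockdown. The median change over the 38 bins was -0.76 (95% interval -1.20 to -0.55), and 37 of them were below 0. By the call rule 24 bins were lower and none was higher, or 63.2% against 2.75% of all bins. One bin near the distal edge, chr2R:2381001-2382000, did not follow: it held 148 in the control and 173 in rhino knockdown, more reads than any other bin of the cluster. Without it the summed Pol II reads stood at 0.44 of the control (interval 0.41 to 0.47), against 0.74 with it.

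The difference was uneven along 42AB. Gaps without usable bins divide the cluster into 3 blocks. In the middle block, chr2R:2210001-2230000, all 9 bins were called lower, the mean went from 11.9 to 2.60 and the reads stood at 0.22 of the control (0.19 to 0.25). The first block, chr2R:2144001-2182000, had means of 7.68 and 5.55 over 10 bins, a median change of -0.44 and 2 bins called lower. The last block, chr2R:2325001-2382000, had a median change of -0.91 over 19 bins, of which 13 were called lower. Control Rhino was high in all 3 blocks, with medians of 4.68, 5.93 and 4.25 over input on the log2 scale, and it was highest in the block with the lowest Pol II ratio.

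Nascent RNA was lower in the middle and last blocks but not in the first. GRO-seq, which labels RNA under synthesis in isolated nuclei, had median changes of 0.56 in the first block, -2.64 in the middle and -1.22 in the last. Steady RNA (RNA-seq of 2 control libraries and 1 rhino knockdown library) had median changes of -0.60, -2.47 and -1.26. In the first block Pol II was below the control in 10 of 10 bins while GRO-seq was above it in 8 of them. Over the whole cluster the mean RNA-seq value was 3.24 and 2.31 in the control libraries and 0.82 in rhino knockdown.

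**Figure D1:**
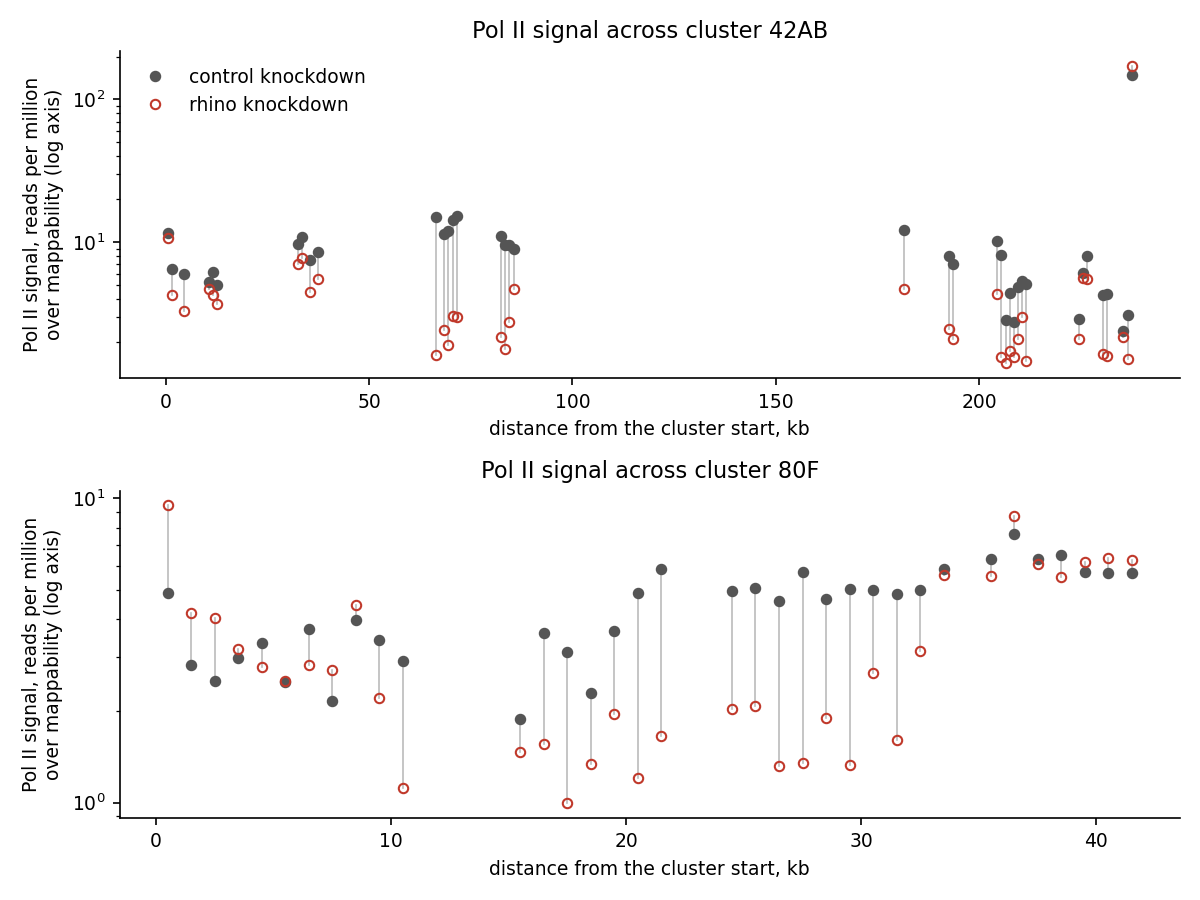
Pol II signal per 1 kb bin (reads per 1000000 over mappability, log axis) against distance from the start of clusters 42AB and 80F in kb. Filled points are the control library and open points the rhino knockdown library, joined bin by bin. The middle block of 42AB goes from a mean of 11.9 to 2.60, while its last bin stays at 148 and 173, and in 80F the gap is widest in the middle of the cluster.

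At 80F, a dual-strand cluster in the heterochromatin of 3L, the lower Pol II values followed Rhino within the cluster. All 35 usable bins of chr3L:23273001-23315000 together had means of 4.43 and 3.35 and a median change of -0.30 (-0.85 to -0.04), with 14 called lower and 1 higher. The 22 bins bound by Rhino, with control Rhino at least 4-fold over input on the log2(value + 1) scale, had means of 4.10 and 2.02, a median of -0.87 and reads at 0.50 of the control (0.45 to 0.55). The 13 other bins, at both ends, had means of 4.98 and 5.61 and a median of 0.11. All 14 bins called lower were among the 22 bound ones. GRO-seq had a median change of -1.72 in the bound bins and -0.05 in the others. Mappability ran along the same line. The 17 bins with an index under 0.8 had a median Pol II change of -0.97, and the 18 above it had 0.09, among which 6 were bound by Rhino and had a median of -0.33. Across the 35 bins the Pol II change had a rank correlation of -0.84 with control Rhino and 0.65 with mappability, given as a description since the bins share the same 2 libraries.

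The other dual-strand clusters showed smaller or mixed Pol II changes, and they did not share the split by Rhino seen at 80F. In 38C1 the 9 bound bins had a median of 0.14 and the 8 other bins -0.28. In 38C2 the medians were 0.08 in 8 bound bins and 0.18 in 3 others. In the distal cluster of chromosome 4 they were 0.56 in 5 bound bins and -0.16 in 15 others. 38C1 had 17 usable bins with means of 12.5 and 16.1 and a median change of -0.22, an interval of -0.52 to 0.38, with 4 bins called lower and none higher. Its reads were concentrated in chr2L:20148001-20149000, with 130 in the control and 174 in rhino knockdown, and chr2L:20223001-20224000, with 46.6 and 64.2. Most of its other bins held under 6 in both libraries, so sum and median differ in sign. 38C2, on chr2L:20104001-20119000, had means of 22.4 and 30.9 over 11 bins and a median change of 0.18, with 1 bin called lower and 1 higher. Its first bin held 157 and 237 and was the one called higher. With no mappability filter the median of 38C2 was -0.08 over 15 bins. Thus 42AB, 38C1 and 38C2 each carried 1 bin near an edge, with 130 to 157 in the control, whose Pol II value was not lower after rhino knockdown. RNA-seq was below both control libraries in 15 of 17 bins of 38C1 and 9 of 11 bins of 38C2, against 32% of all bins.

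The distal cluster of chromosome 4, chr4:1258001-1349000, held more Pol II reads after rhino knockdown. Over 20 usable bins the mean was 14.4 in the control and 28.2 in rhino knockdown, the median change was 0.01, and 3 bins were called higher and none lower. The increase lay in few bins: chr4:1310001-1311000 went from 14.5 to 103 and chr4:1291001-1292000 from 60.2 to 212. Both were bound by Rhino in the control, and their GRO-seq changes were 3.06 and 2.79. The 4 bins that make up most of the cluster's reads lie outside the authors' own selection of windows. The median of this cluster was -0.22 at a mappability of at least 0.8 and 0.54 with no mappability filter. It was -0.15 with input at 50% of its median or more and -0.02 when scaled to euchromatic exon bins, so its sign depends on the filters and the scaling.

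Taking the 5 dual-strand clusters as 1 class, 43 of 121 bins (35.5%) were called lower and 5 were called higher. The median change was -0.33 (-0.50 to -0.20), against -0.04 for all bins. The mean nevertheless went from 11.04 to 13.16, with a read ratio of 1.18, and a few Pol II-rich bins hold most of the reads. In the 117 of these bins within the authors' selection of windows, the mean went from 9.88 to 9.69 and the read ratio was 1.03. The rise in the mean thus rests on the 4 bins of the distal chromosome 4 cluster that lie outside that selection. Leaving out 42AB gave a class median of -0.15, and it was -0.0017 in the 49 bins with a mappability of at least 0.8, of which 5 come from 42AB.

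Single-strand clusters and chromosome ends had no bin called lower, over 21 and 14 usable bins. In sets this small that is near the 2.75% called lower among all bins. flamenco had means of 4.13 and 4.58 over 14 usable bins on chrX:21505001-21685000, with a median change of 0.13 (-0.26 to 0.35). 20A, also on X, had means of 11.3 and 9.58 over 7 bins and a median of -0.34 (-0.46 to 0.16). Its reads stood at 0.84 of the control (0.78 to 0.91). The end of 2L had a median of 0.14 over 7 bins. The end of 2R had means of 7.88 and 12.02 over 7 bins, a median of 0.34 (-0.21 to 0.91) and 3 bins called higher. No bin of the listed end of 3R passed the filters. Small RNA at flamenco had mean values of 1720 and 1866, and at 42AB 3266 and 81.0.

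**Figure D2:**
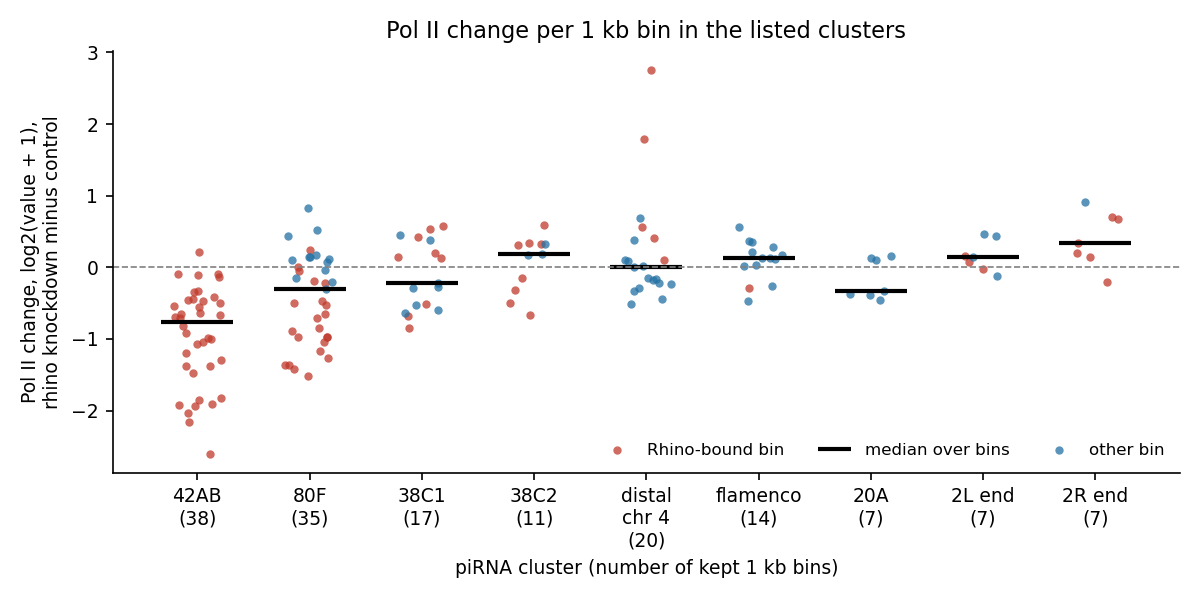
Pol II change per 1 kb bin (log2(value + 1), rhino knockdown minus control) in 9 listed clusters with usable bins. Points are bins, red where control Rhino is at least 4-fold over input and blue otherwise, bars are medians over bins, and the number of bins is given under each name. Nearly all points of 42AB lie below 0, and in 80F most red points lie below the blue ones.

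Beyond the listed clusters, Pol II change was set out by control Rhino in every usable bin. There were 961 Rhino-bound bins, with a median change of -0.22 (-0.25 to -0.18). Of these, 173 (18.0%) were called lower and 67 (6.97%) were called higher, against 2.75% and 4.64% of all bins. Their mean was nevertheless 7.80 in the control and 8.51 in rhino knockdown, so sum and median differ in sign, as they do for the heterochromatic bound bins, whose means were 3.14 and 4.13. The median was -0.19 in the 901 bound bins outside 42AB and 80F. Bound bins under one of the authors' Rhino peaks, 554 in all, had a median of -0.31, and the 407 without a peak had -0.11. In euchromatin the 356 bound bins had a median of -0.33 with 23.3% called lower, and in heterochromatin the 605 bound bins had -0.18 with 14.9%. The flag counts 42AB and chromosome 4 as euchromatin, and these held 38 and 104 bound bins, with 24 and 32 called lower. Their bound bins were rich in H3K9me3. The control medians over input were 2.85 and 2.19 on the log2 scale, against 2.51 in the heterochromatic bound bins. Bound bins that overlap an exon had a median of -0.13 over 130 bins, which was 0.02 when scaled to euchromatic bins outside exons, against -0.23 and -0.15 for the 831 bound bins outside exons.

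The median change was further below 0 in classes with more Rhino. Below 4-fold over input the medians lay between -0.05 and -0.02. From 4-fold to 8-fold the median was -0.15 in 681 bins, and from 8-fold to 16-fold it was -0.29 in 214 bins. From 16-fold to 32-fold it was -0.66 in 47 bins, of which 53.2% were called lower. Summed Pol II did not share this order: the means were 7.62 and 7.87 from 4-fold to 8-fold, 8.61 and 11.02 from 8-fold to 16-fold, and 6.38 and 8.69 from 16-fold to 32-fold, with read ratios of 1.02, 1.21 and 1.24. At 32-fold and above, 17 of 19 bins were called lower, the mean went from 9.05 to 2.65, and the reads stood at 0.28 of the control (0.26 to 0.31). Of these 19 bins, 14 lie in 42AB, 3 in 80F and 2 on 3RHet. The classes from 4-fold up kept medians below 0 under all 3 other scalings, the highest of these being -0.03. The classes below 4-fold turned above 0, to between 0.07 and 0.11, when scaled to euchromatic bins outside exons. In bins with a mappability of at least 0.8 the medians were -0.17 from 4-fold to 8-fold, -0.41 in 96 bins from 8-fold to 16-fold and -0.80 in 11 bins above that.

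The medians of 4 classes of control H3K9me3 lay between -0.06 and -0.04. Where Rhino was under 2-fold, the share called lower was 2.50%, 2.33%, 3.17% and 4.70% from the lowest to the highest H3K9me3 class. Among bins with H3K9me3 at least 4-fold over input, the 2657 with Rhino under 2-fold had a median change of -0.06 and means of 9.20 and 9.14. The 754 that were also bound by Rhino had a median of -0.21 with 18.3% called lower, and the 232 of them with at least 8-fold Rhino had -0.36 with 34.1%. Bound bins with less H3K9me3, 207 in all, had a median of -0.23 and 16.9% called lower. Thus Rhino-bound bins had similar medians on either side of the H3K9me3 limit. After rhino knockdown, H3K9me3 itself had a median change of -0.14 in the 961 bound bins and -0.65 in 42AB.

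**Figure D3:**
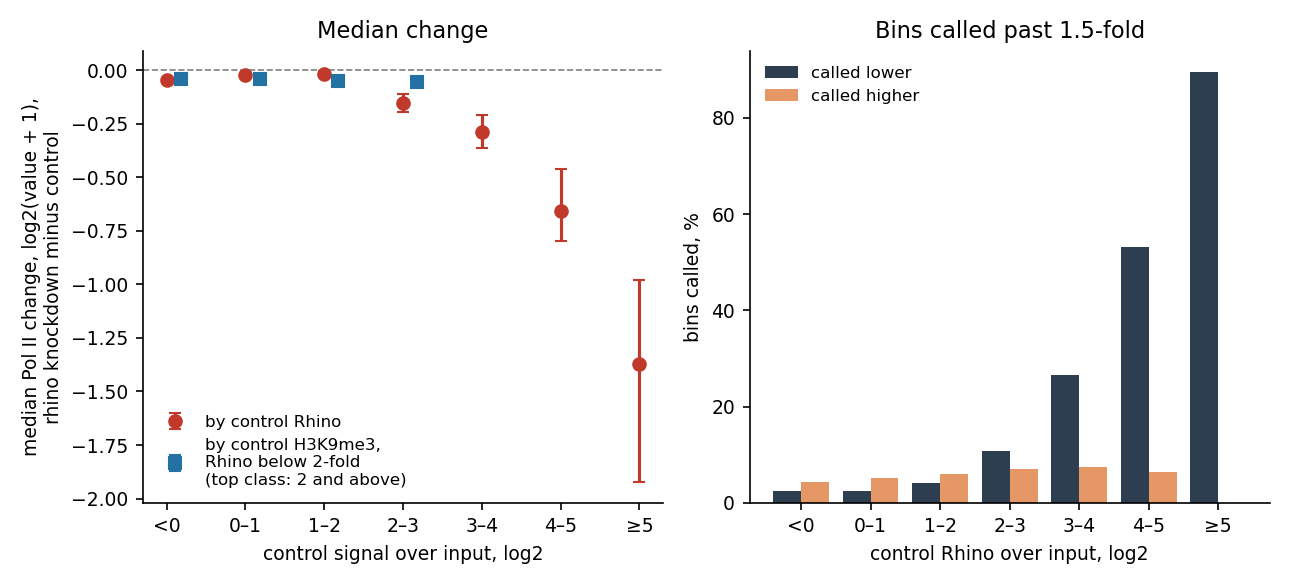
Left: median Pol II change with its 95% interval over bins, in classes of control Rhino over input (red circles) and, for bins with Rhino below 2-fold, in classes of control H3K9me3 over input (blue squares), both on the log2 scale. Right: percent of bins called lower or higher past 1.5-fold by control Rhino. The median goes from -0.15 at a Rhino level of 2 to 3 to -1.37 at 5 and above, while the H3K9me3 classes stay between -0.06 and -0.04.

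Levels over input restate these changes on another scale. The same control input average was subtracted from both libraries, so the change in each bin is the one already given. The median of log2 Pol II over input in 42AB was -0.06 in the control and -1.07 in rhino knockdown. At 80F it was -0.92 and -1.31, and in euchromatic exon bins -0.97 and -0.96. In the control 14 of 38 bins of 42AB were at or above input, and in rhino knockdown 1 was. So 42AB, with no exon overlap in these bins, stood above the median exon bin in the control and below it after knockdown.

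The libraries also differed in euchromatic bins where the control had no nascent RNA read. In the 36736 euchromatic bins without a control GRO-seq read the mean Pol II value was 1.39 in the control and 1.23 in rhino knockdown, a ratio of 0.87. The bound bins of 3LHet, 206 in all, had means of 1.32 and 0.99, a ratio of 0.72. Their control mean was near that of the bins without a read, but not their level over input. Over input the control medians were -1.06 in the bound bins of 3LHet and -2.06 in the bins without a read, on the log2 scale. The bins of 42AB outside its richest bin had a mean of 7.71 in the control. The libraries were then scaled to the euchromatic bins without a control read, of which 34.7% had a GRO-seq read in rhino knockdown. The median was then -0.60 in 42AB, -0.74 in the bound bins of 80F and -0.09 in all Rhino-bound bins. Of the bound bins, 109 were then lower and 102 higher. What part this difference between the libraries has in the results at low levels was not tested.

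Rhino-bound bins group into 56 domains of at least 5 bins with gaps of up to 3 kb, and 49 of these (87.5%) had a median Pol II change below 0. Among single bins 68.5% of the bound ones and 55.3% of all were below 0, which is no like-for-like comparison since a domain median pools bins. The 10 domains with the most control Rhino include 2 stretches of 42AB and 1 of 80F. The largest, chr4:819001-874000, lies in no listed cluster. Its 48 bins had means of 5.28 and 3.50, a median change of -0.53 (-0.62 to -0.45), reads at 0.66 of the control (0.63 to 0.69), and 20 bins called lower and none higher. GRO-seq and RNA-seq changes there had medians of -0.78 and -0.92. A second domain of the same chromosome, chr4:716001-742000, had a median of -0.49 with 10 of 24 bins called lower, though its means were 9.50 and 9.40. On X, the 12 bins of chrX:22383001-22398000 had means of 2.10 and 1.16 and a median of -0.54, with 6 called lower. At chr3LHet:1994001-2008000 the means were 0.88 and 0.51 over 11 bins, with a median of -0.29 and 2 called lower. The stretches of 42AB at chr2R:2210001-2216000 and chr2R:2348001-2356000 had medians of -2.03 and -0.95, and that of 80F at chr3L:23288001-23307000 had -0.98. Each of the domains named so far had a median below 0, with 2 to 20 bins called lower and none called higher. The rest of the 10, which differ from these, follow.

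Domains differed in direction as well as size. The domain at the proximal end of 3R, chr3R:1001-23000, had a median of -0.11 over 20 bins and 1 bin called lower, and this median was 0.05 when scaled to euchromatic bins outside exons. At chr3RHet:2095001-2108000 the median was -0.14 over 9 bins, an interval of -0.57 to 0.26. Its means were 2.32 in the control and 2.80 in rhino knockdown, with 1 bin called lower and 1 higher. GRO-seq was above the control in all 9 bins. At chr3RHet:620001-638000 Pol II was higher after knockdown: the mean went from 1.06 to 2.56, 10 of 14 bins were called higher, and the reads stood at 2.53 times the control (2.165 to 2.972). GRO-seq in that domain had a median change of 2.13, RNA-seq 0.67, small RNA -4.55 and H3K9me3 1.56.

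Chromosomes differed in the same sense. Rhino-bound bins had medians of -0.44 on chromosome 4 (104 bins, 30.8% called lower), -0.40 on 3L (99 bins, 31.3%), -0.27 on X (82 bins, 15.9%), -0.26 on 3LHet and -0.21 on 2R, and these stayed below 0 under the other scalings. The value of 2R rests largely on 42AB, which held 38 of its 99 bound bins and 24 of the 25 called lower. On 3L, 80F held 22 of the 99 bound bins and 14 of the 31 called lower. Medians were near 0 on 2L, at -0.03 over 43 bound bins (-0.29 to 0.13), and on 3R, at -0.05 over 39 (-0.19 to 0.09). On 3RHet the median over 139 bound bins was -0.12 with an interval of -0.25 to 0.06, and 20.1% were called higher against 12.9% called lower. On U, which collects sequence not placed on a chromosome, 77 bound bins had a median of 0.01 and means of 12.8 and 19.9, and 2RHet had 0.05 over 56 bins. Taking heterochromatic bins outside exons whatever their Rhino level, 17.7% were called higher on 3RHet, 15.3% on 2LHet (72 bins), 13.3% on U and 10.3% on 2L. The share was 4.42% on 2RHet, 2.26% on 2R, 1.69% on 3L, 1.54% on XHet (65 bins) and 1.29% on 3LHet.

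Nascent RNA went the same way as Pol II at most called bins bound by Rhino. Among the 173 called lower, GRO-seq was below the control in 131 (75.7%), against 39.2% of all bins and 52.4% of all bound bins. The median GRO-seq change in these 173 was -0.87. RNA-seq was below both control libraries in 156 of them (90.2%), against 71.8% of all bound bins. Among the 67 called higher, GRO-seq was above the control in 62 (92.5%), against 39.3% of all bins and 308 of the 961 bound bins. The median GRO-seq change in these 67 was 2.24. RNA-seq was above both controls in 44 of these 67 (65.7%), against 22.6% of all bins and 11.6% of all bound bins. Over all 961 bound bins the rank correlation of Pol II and GRO-seq changes was 0.47, and it was 0.10 over all used bins. Both are descriptions, since bins share libraries and neighbouring bins share transcripts. Small RNA had a median change of -5.92 in the bound bins called lower and -3.27 in those called higher.

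**Figure D4:**
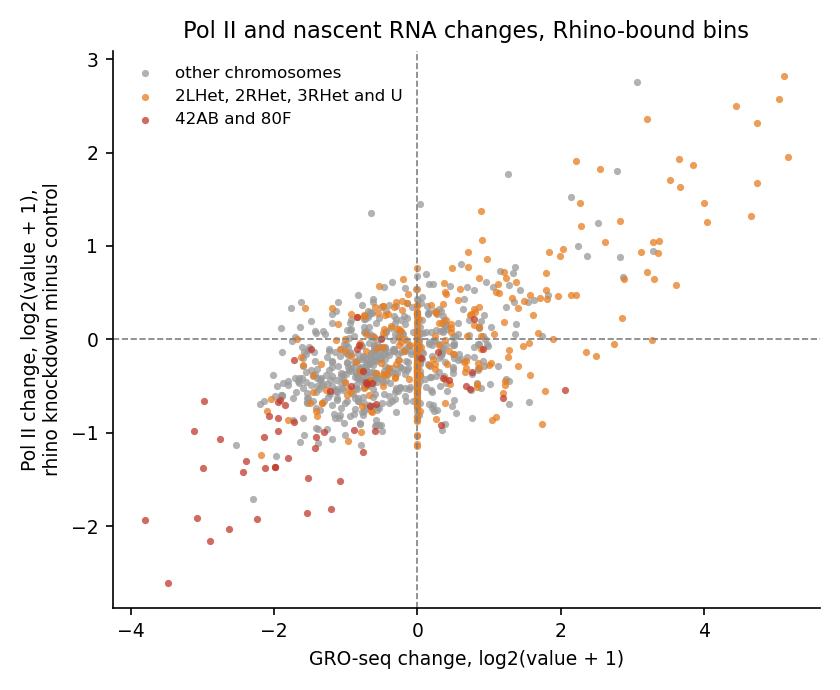
Pol II change against GRO-seq change, both log2(value + 1) and rhino knockdown minus control, in 961 Rhino-bound bins. Red points are bins of 42AB and 80F, orange points bins of 2LHet, 2RHet, 3RHet and U, and grey points all others. Most red points lie at the lower left, though 10 of 38 bins of 42AB have a GRO-seq change above 0. Many orange points lie at the upper right, with 67 bins called higher in all.

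Single bins at the extremes were taken from the 54225 bins with at least 100 Pol II reads in both libraries together. Of the 10 lowest, 7 lie in the middle block of 42AB, with changes of -2.60 to -1.85. At chr2R:2210001-2211000 the value went from 14.9 to 1.62. The lowest of all, chr2L:22463001-22464000, went from 8.40 to 0.51 with 101 and 4 reads, and its neighbour at 22462001 from 7.50 to 1.21. Neither was bound by Rhino, with log2 values over input of 0.17 and 0.48, and the same holds for chr2R:647001-648000, which went from 7.35 to 1.08. GRO-seq was lower in all 10.

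The 10 highest had changes of 2.61 to 3.04, and 8 of them are heterochromatic. The 4 on 3RHet include the neighbours at chr3RHet:2179001-2182000, which went from 2.10, 2.01 and 1.88 to 17.9, 17.3 and 22.7. At chr2RHet:2271001-2272000 the value went from 18.5 to 137 and GRO-seq changed by 7.26. In euchromatin chr3L:22099001-22100000 went from 8.08 to 58.6, with a GRO-seq change of 5.75 and an RNA-seq change of 2.64. GRO-seq and RNA-seq were higher in all 10, and 2 of the 10 were bound by Rhino. Over the 295 heterochromatic bins called higher, 230 (78.0%) had more GRO-seq signal, with a median change of 1.43. The share was 39.3% in all bins, 39.4% in heterochromatic bins outside exons and 39.7% in heterochromatic exon bins. Small RNA had a median change of -1.33 in the 295 bins. It was -2.87 in heterochromatic bins outside exons and -0.48 in heterochromatic exon bins.

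In euchromatin the Pol II changes differed between levels of transcription and were highest at middle levels. Euchromatic bins were split by control GRO-seq into those without a read and quintiles 1 to 5. The medians were -0.10 at 0 and -0.08, -0.01, 0.07, 0.07 and -0.04 in quintiles 1 to 5. The means were 5.91 and 6.26 in quintile 3 and 9.88 and 10.4 in quintile 4. In quintile 4, 11.5% of bins were called higher and 2.157% lower, with 7.12% and 2.32% in quintile 5, against 0.58% and 3.11% in bins without a read, where few reads limit calls. Quintiles 3 and 4 had the highest medians under the 3 other scalings too, while the signs of the other classes depended on the scaling. The 5054 euchromatic bins called higher had a median Pol II change of 0.73, a size that the call rule selects. Their median GRO-seq change was 0.14 and their median RNA-seq change -0.09. GRO-seq was above the control in 60.2% of them, against 40.1% of euchromatic exon bins and 38.7% of euchromatic bins outside exons. RNA-seq was above both controls in 20.6%, against 24.5% and 21.4%.

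**Figure D5:**
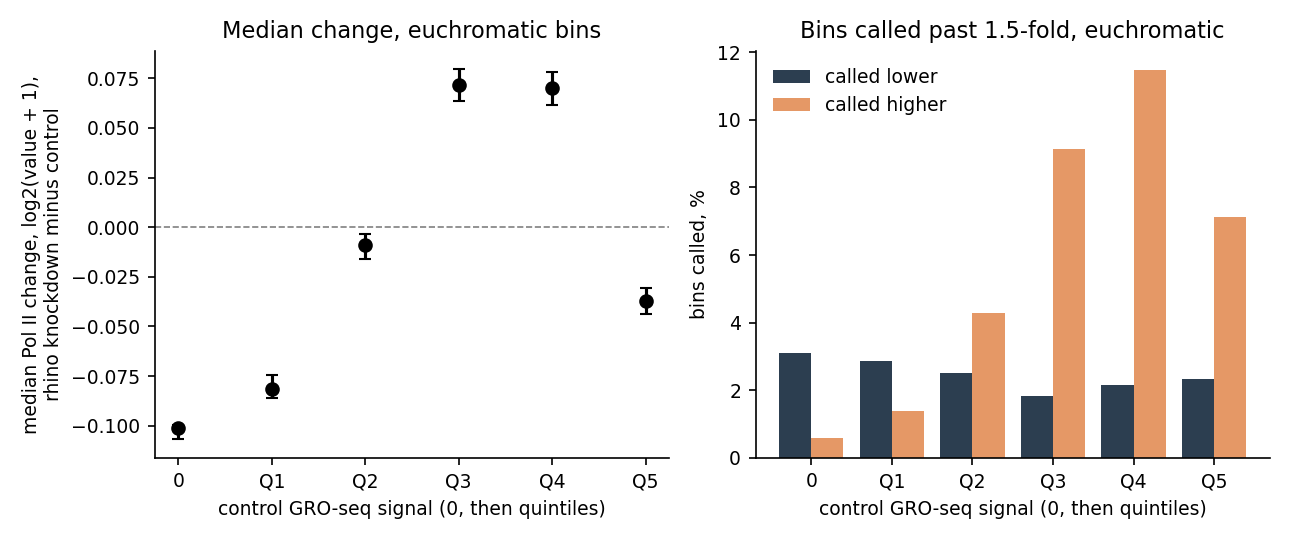
Euchromatic bins by control GRO-seq signal, from no read (0) through quintiles Q1 to Q5. Left: median Pol II change with its 95% interval over bins. Right: percent of bins called lower or higher past 1.5-fold. The share called higher is 0.58% without a GRO-seq read and 11.5% in Q4, and on the left the medians lie between -0.10 and 0.07.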

How the data were processed

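The deposited table gives, per 1 kb bin of dm3, values that the authors computed. Per the submitters' processing notes, the tools were Bowtie 0.12.7, cutadapt 1.0, bedtools 2.16.1, SAMtools 0.1.16 and GSNAP; which step made which column is not given in the sources used here. Read from the values, the deposited signal is reads per 1000000 library reads over the mappability of the bin, with an added offset of 0.1 (0.01 for RNA-seq). With that, 100% of values under 500 reads came out whole within 0.1 read. Summed bin reads came to 103.8% of the scaling total in the control library and 103.9% in rhino knockdown. Division by mappability raises values of repetitive bins, whose reads are fewest. Control Rhino, H3K9me3 and input are deposited averages of 2 libraries, with no spread. Flags for heterochromatin, exon overlap, Rhino peaks, window selection and published clusters are the authors' own. Of 28 columns of sample values, 14 were not used.

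Computed here, with Python 3.11.15, pandas 2.3.3, numpy 2.4.6 and scipy 1.17.1, were log2(value + 1) changes per bin, medians with distribution-free 95% intervals over bins, and ratios of summed reads with exact Clopper-Pearson intervals. The procedure was tested on simulated data. Regions are runs of the published-cluster flag. Named were the 10 listed regions, the 10 Rhino domains with the largest summed control Rhino over input, and the 10 lowest and 10 highest bins with at least 100 reads. Members, lists and rules were chosen with earlier results of these data known. A genome of this build was not used here, so no bin carries a gene name or sequence.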

Additional observations from a re-analysis of the deposited data

How the results depend on the processing

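No paired analysis was possible because each Pol II group has 1 library. With no replicate and few reads per repetitive bin, single-bin calls at low levels are limited by depth; 42AB had a median change below 0 under every pseudocount, filter and scaling run, from -1.06 to -0.44. The dual-strand median of -0.33 was -0.17 at a pseudocount of 5, -0.52 with no mappability filter, -0.0017 at a mappability of at least 0.8, -0.18 when scaled to euchromatic bins without GRO-seq reads (a choice made after seeing the data) and -0.15 without 42AB. The Rhino-bound median of -0.22 was -0.36 and -0.083 at pseudocounts of 0.1 and 5, -0.14 with no input filter, -0.32 with input at 50% of its median or more, -0.12 and -0.094 when scaled to euchromatic bins outside exons and to those without GRO-seq reads, and -0.048 and -0.38 with Rhino-bound set at 2-fold and 8-fold. Bins called lower, 3165, were 7729 and 169 at pseudocounts of 0.1 and 5, 1384 and 1115 under those 2 scalings and 98 at a 2-fold call. Bins called higher, 5349, were 8382 and 1321, 9900 and 11413, and 770. The lower-to-higher order at Rhino-bound bins turned at a pseudocount of 5, with 24 lower and 30 higher. Reversed were the 80F median, 0.087 at a mappability of at least 0.8, and the medians of euchromatic exon, euchromatic non-exon, heterochromatic exon and heterochromatic non-exon bins. These 4 were 0.082, 0.077, 0.083 and 0.036 when scaled to euchromatic bins outside exons, and 0.12, 0.10, 0.12 and 0.064 when scaled to those without GRO-seq reads. The 38C2 median, 0.18 with an interval that includes 0, was -0.080 with no mappability filter. The cause of these differences was not tested. RNA-seq at dual-strand clusters had a median change of -0.63, from -0.70 to -0.58 when either control library was left out.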

Other observations

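Higher Pol II in euchromatin often extended over neighbouring bins, a pattern looked for after the data were seen. Runs of at least 3 neighbouring bins called higher numbered 428 in euchromatin and held 2358 of the 5054 bins called higher there. Runs of bins called lower numbered 36 and held 129 of 2856. The balance of higher and lower calls moves with the scaling, as given above. The longest, chr2L:13022001-13058000, spans 36 bins, with means of 6.31 in the control and 17.2 in rhino knockdown and a median change of 1.38. Its GRO-seq and RNA-seq changes had medians of 0.28 and 0.06, and its median Rhino level over input was -0.26 on the log2 scale. The next, chr3R:5781001-5811000, had means of 5.92 and 13.1 over 30 bins, with 0.11 and -0.23 for GRO-seq and RNA-seq. The longest run and the next had no Rhino enrichment and little change in either RNA measure.

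The longest run of bins called lower, chr2R:13512001-13521000, spans 9 bins with means of 8.85 and 3.58. GRO-seq and RNA-seq had median changes of -0.85 and -0.89 there, and Rhino over input was -0.29. In heterochromatin the longest lower run outside a listed cluster, chr2R:992001-998000, had means of 4.80 and 1.84 over 6 bins, with a small RNA change of -5.87 and Rhino over input at 0.83. In heterochromatin of 2L, chr2L:22353001-22367000 had means of 6.22 and 23.0 over 14 bins called higher, and chr2L:22276001-22283000 had 5.13 and 22.2 over 7 bins, with GRO-seq changes of 0.12 and 3.86.

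Published piRNA clusters that are not among the 10 listed regions held 1291 usable bins with a median Pol II change of -0.13. The 466 of them bound by Rhino had a median of -0.23 with 16.5% called lower, and the other 825 had -0.08 with 5.58%, which was 0.02 when scaled to euchromatic bins outside exons.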
